A study of Mus musculus with 8 samples.

Results

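Potassium channel subunits were taken as the 91 genes, of 23481 genes in the count table, whose symbol starts with Kcn. Another 5 Kcn rows that name antisense or opposite-strand transcripts were left out. By symbol the members fell into 39 voltage-gated alpha subunits, 8 auxiliary subunits of voltage-gated channels (Kcnab and Kcne), 4 Kcnip calcium sensors, 8 subunits of BK and sodium-activated channels, 4 SK and IK channels, 14 inward rectifiers, 13 two-pore channels and Kcnrg, a gene named as a regulator of such channels. Nuclei of adult mouse midbrain, sorted by flow cytometry and labelled as midbrain dopaminergic, were profiled by single-nucleus RNA sequencing with 10x chemistry that tags transcripts near the 3' end. The 2 genotypes were a PRC2 mutant and wt, both of strain DatCreEed, whose name points to Cre recombinase under the dopamine transporter gene Dat and to Eed, a core subunit of Polycomb repressive complex 2 (PRC2). Each genotype was 1 library from a pool of 2 female and 1 male mice aged 8 months, sequenced on 4 lanes that are not kept apart in the table. Cre acts where Dat is active. With no replicate the genotypes could not be tested against each other, and genotype, pool and library cannot be told apart.

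Potassium channels let potassium leave the cell, which sets the resting potential and ends each action potential. Midbrain dopamine neurons fire spontaneously, and their pacing is known to depend on A-type channels built from Kcnd alpha subunits with Kcnip partners and on calcium-activated SK channels. Girk channels, among them Kcnj6, carry the current by which dopamine acting on its autoreceptor Drd2 slows these neurons. PRC2 methylates histone H3 at silenced genes, and the study asked what dopaminergic nuclei express without its function.

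A nucleus was called dopamine when the UMIs (molecules counted once) of Th, Slc6a3, Slc18a2 and Ddc made up at least 5 per 10000 of its total, and other when below that. The dopamine class held 2875 mutant and 1320 wt nuclei, with median depths of 19023 and 24258 UMIs, and the other class held 1093 mutant and 452 wt nuclei, with medians of 14650 and 12472 UMIs. This class is a range of a score: 116 mutant and 37 wt dopamine nuclei lay within 1 per 10000 of the limit. The summed level of 6 further dopamine neuron markers was 477 CPM (UMIs of the gene per 1e6 UMIs of the class) in mutant dopamine nuclei and 546 CPM in wt dopamine nuclei, against 145 and 123 CPM in mutant and wt other nuclei. Of these markers, Pitx3 had 6.33 CPM, En1 29.3, Foxa2 7.06, Nr4a2 92.2, Lmx1b 109 and Ret 233 CPM in mutant dopamine nuclei, against 18.1, 75.1, 9.37, 115, 143 and 185 CPM in wt dopamine nuclei, so Ret alone was above its wt level. The gate genes also moved with genotype, with a median sum of 13.7 per 10000 in mutant and 24.3 per 10000 in wt dopamine nuclei. Eed itself had 41.3 CPM in mutant and 21.4 CPM in wt dopamine nuclei, and since the deleted part is not named in the labels, its tags do not check the genotype. Hox transcripts, a known class of PRC2 targets, reached at least 5 per 10000 in 1188 mutant dopamine nuclei, while 3 wt dopamine nuclei held any Hox UMI. The libraries shared 4 cell barcodes. No doublet caller was run: 122 mutant and 78 wt dopamine nuclei had glial and vascular markers at or above 10 per 10000, and 29 wt dopamine nuclei formed a shallow cluster (median 1271 UMIs) led by Tph2 and Slc6a4, markers of serotonergic neurons.

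The promoters of 4 genes that differed between mutant and wt dopamine nuclei are printed because Polycomb complexes in mammals are known to occupy promoters rich in CG. Each line holds the 250 bases before a RefSeq transcript start of build GRCm38.p6, with every CG in capitals. The motif CG reads the same on both strands. A count of CG describes the letters and is no evidence of binding or methylation there.
Kcnj6: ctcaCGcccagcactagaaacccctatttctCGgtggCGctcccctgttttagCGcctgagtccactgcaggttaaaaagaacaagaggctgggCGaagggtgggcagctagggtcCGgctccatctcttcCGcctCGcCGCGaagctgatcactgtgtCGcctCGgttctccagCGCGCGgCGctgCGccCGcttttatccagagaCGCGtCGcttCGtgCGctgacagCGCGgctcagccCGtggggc
Kcnn3: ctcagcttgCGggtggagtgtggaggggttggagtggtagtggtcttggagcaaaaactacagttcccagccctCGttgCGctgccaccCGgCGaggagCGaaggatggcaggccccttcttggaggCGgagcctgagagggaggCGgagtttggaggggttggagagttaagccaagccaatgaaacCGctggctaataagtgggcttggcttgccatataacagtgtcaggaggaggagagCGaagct
Kcnip1: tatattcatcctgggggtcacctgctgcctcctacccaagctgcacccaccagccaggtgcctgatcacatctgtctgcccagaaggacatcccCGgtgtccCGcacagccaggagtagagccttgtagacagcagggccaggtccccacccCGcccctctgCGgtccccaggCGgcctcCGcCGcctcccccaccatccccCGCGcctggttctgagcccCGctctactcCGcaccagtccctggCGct
Kcnrg: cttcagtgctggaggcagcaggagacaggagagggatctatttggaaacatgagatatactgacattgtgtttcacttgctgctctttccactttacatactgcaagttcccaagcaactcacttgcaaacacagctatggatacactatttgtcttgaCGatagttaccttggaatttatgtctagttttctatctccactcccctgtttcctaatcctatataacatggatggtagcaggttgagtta
The Kcnj6 window, chr16:94997697-94997946 on the minus strand, held 26 CG, and 9.59% of 32851 windows of the same length held at least as many. The Kcnip1 window, chr11:33843687-33843936 on the minus strand, held 12 CG (33.5% of windows held at least as many), and the Kcnn3 window, chr3:89519914-89520163 on the plus strand, held 10 CG (37.8%). The Kcnrg window, chr14:61607207-61607456 on the plus strand, held 1 CG (92.1%). Kcnj6 has 2 windows and Kcnip1 has 3, and the one with the most CG is shown, which favours its rank against all single windows. The Kcnip1 window lies inside the gene as annotated. No window is printed for Kcnn2 and Kcna1, which also differed between mutant and wt dopamine nuclei. A window was at hand for 47 of 70 measured members (67.1%), so no comparison of CG content between groups of members was made.

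The potassium channel genes took up a like part of the transcriptome in each set, 15266 CPM in mutant and 16693 CPM in wt dopamine nuclei, against 17518 and 16810 CPM in mutant and wt other nuclei. A single gene, Kcnip4, a calcium sensor that binds Kcnd channels, made up 4804 CPM of the mutant and 6799 CPM of the wt dopamine sum. Without Kcnip4 the sums in dopamine nuclei were 10463 CPM in mutant and 9894 CPM in wt. Counts come from tags near the 3' end, and the sources used here do not give whether intronic reads were counted, so levels are compared between sets of nuclei and not between genes. Intervals below are exact 95% intervals (Clopper-Pearson for shares) that cover counting error only.

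In wt nuclei, dopamine neurons stood apart from the other nuclei of the same sort by high levels of Kcns3, Kcnj6, Kcnd3, Kcnn3 and Kcng3 and by low levels of Kcnh8, Kcnj3, Kcnh7, Kcna1 and others. Members with at least 50 UMIs were compared at 2-fold after a pseudocount of 5 CPM: 5 of 62 were higher in dopamine nuclei, where 1.53% of all genes measured were, and 14 of 62 were lower, where 3.46% were. The median log2 ratio of dopamine to other nuclei was -0.29 over the members and -0.06 over all genes. Nuclei of 1 library are no replicates, so these are descriptions of that library.

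Kcns3 (chr12:11090202-11151056), a subunit silent by itself that modifies Kcnb channels, had 141 CPM in wt dopamine nuclei and 25.2 CPM in wt other nuclei, a ratio of 5.61 (4.83 to 6.54). Kcnj6 (chr16:94748636-94997701), the Girk subunit of the dopamine autoreceptor current, had 1050 CPM in wt dopamine nuclei and 205 CPM in wt other nuclei, a ratio of 5.12 (4.86 to 5.39). Kcnd3 (chr3:105452330-105674002), the alpha subunit of the A-type current in these neurons, had 1187 CPM in wt dopamine nuclei and 240 CPM in wt other nuclei, a ratio of 4.95 (4.72 to 5.20). The intervals of the 3 ratios overlap, and none of the genes entered the gate. Kcnn3 (chr3:89520164-89675132), an SK channel opened by calcium, had 449 CPM in wt dopamine nuclei and 105 CPM in wt other nuclei, a ratio of 4.30 (3.99 to 4.63). Kcng3 (chr17:83585957-83631895), another silent subunit, had 21.2 CPM in wt dopamine nuclei and 5.59 CPM in wt other nuclei, a ratio of 3.78 (2.76 to 5.34).

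The same 5 genes were higher in dopamine nuclei of the mutant library, 5 of 70 measured members, where 1.23% of all genes were. Kcnj6 had 617 CPM in mutant dopamine and 231 CPM in mutant other nuclei, and Kcnn3 had 280 and 93.0 CPM in these classes. Kcns3, with 107 and 19.3 CPM in mutant dopamine and other nuclei, and Kcnd3, with 1247 and 306 CPM, kept ratios of 5.55 and 4.07.

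Lower members in wt dopamine nuclei came from most families. The Kcnh genes, which include relatives of the cardiac Herg channel, summed to 406 CPM in wt dopamine nuclei and 1110 CPM in wt other nuclei, a ratio of 0.366 (0.356 to 0.376). Kcnh8 had 7.29 CPM in wt dopamine and 52.1 CPM in wt other nuclei, and Kcnh7 had 251 CPM in wt dopamine and 842 CPM in wt other nuclei. Kcnj3, a Girk subunit that pairs with Kcnj6 or Kcnj9 in many neurons, had 131 CPM in wt dopamine and 417 CPM in wt other nuclei, opposite in direction to Kcnj6. Kcnd2, the other main A-type alpha subunit, had 928 CPM in wt dopamine and 1946 CPM in wt other nuclei, while Kcnd3 ran the other way and the summed Kcnd level was close, at 2121 and 2190 CPM. Kcnip1 had 60.3 CPM in wt dopamine and 165 CPM in wt other nuclei, and Kcnmb2, a beta subunit that inactivates BK channels, had 50.9 and 143 CPM. Kcna1, an axonal delayed rectifier, had 7.46 CPM in wt dopamine and 33.3 CPM in wt other nuclei. The remaining lower members were Kcnab3, Kcnj10, Kcnk3, Kcnk12, Kcnc1, Kcnq5 and Kcnh1. Kcnj10 was no longer called with nuclei rich in glial markers left out, or with only nuclei of at least 5000 UMIs. As a mean over nuclei, Kcnab3, Kcnc1, Kcnh1, Kcnk3 and Kcnq5 were not called lower, while Kcnk13 was. In the mutant library 9 of 70 members were lower in dopamine nuclei, where 1.88% of all genes were, and all 9 were among the 14 of the wt library.

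Kcnma1, the BK channel, Kcnq3 and Kcnip4 did not pass 2-fold in either library. Kcnma1 had 1276 CPM in wt dopamine and 1086 CPM in wt other nuclei, and Kcnip4 had 6799 and 6554 CPM. Kcnj11, the pore of the channel that closes when ATP is plentiful, was low, with 1.55 CPM in wt dopamine nuclei from 61 UMIs and 1.68 CPM in wt other nuclei from 12 UMIs.

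**Figure D1:**
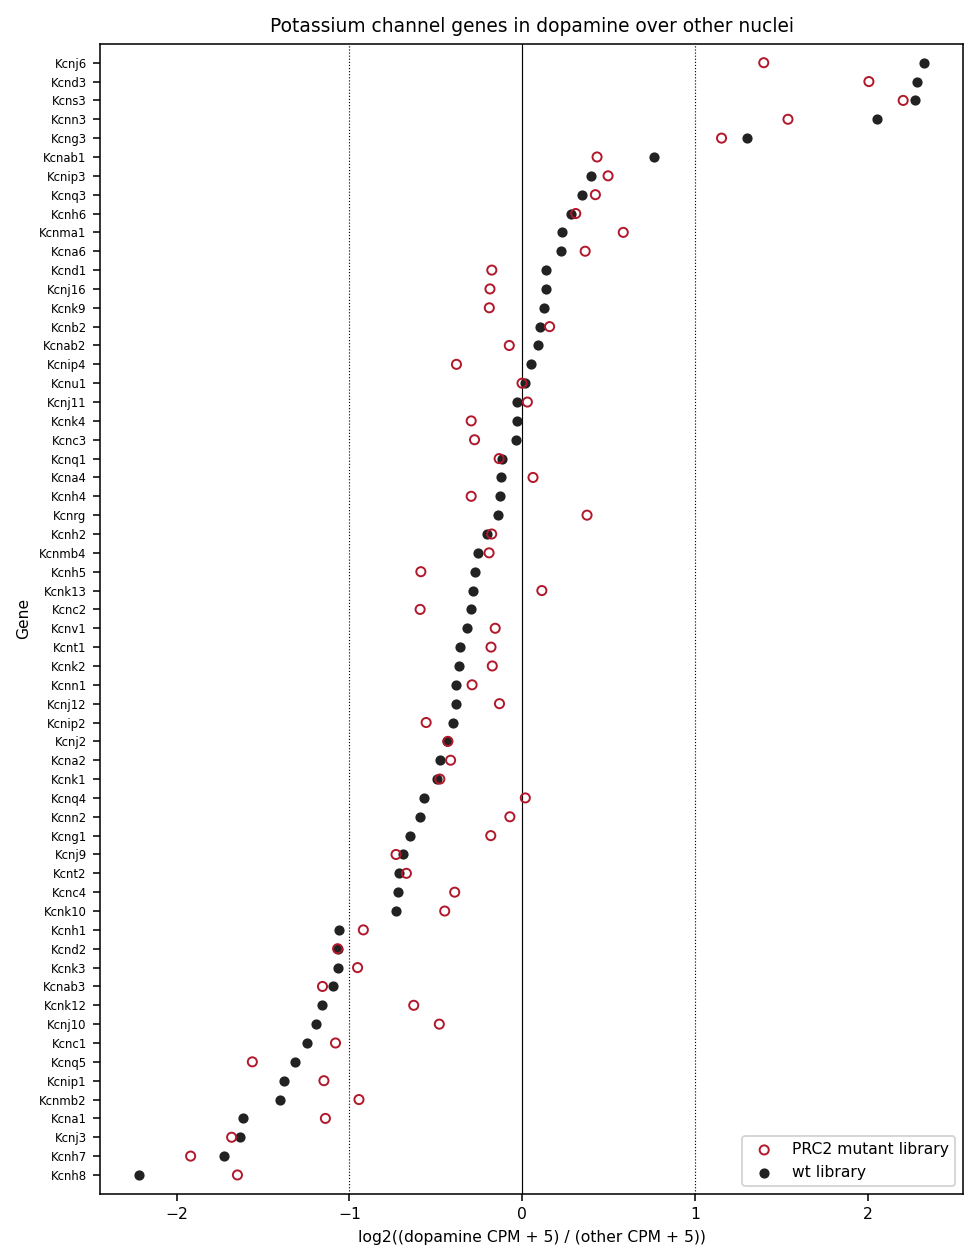
Log2 ratio of dopamine to other nuclei (CPM with 5 added to each) for potassium channel genes measured in both libraries, with open red circles for the PRC2 mutant and black points for the wt library and dotted lines at 2-fold. Kcnj6, Kcnd3, Kcns3, Kcnn3 and Kcng3 lie right of the upper line in both libraries, and Kcnj6 is at 1.40 in the mutant and 2.33 in the wt library.

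Dopamine nuclei differed among themselves. They were split by 6 marker lists without any Kcn gene, a nucleus going to the list that stood highest relative to its wt mean (at least 2 times that mean and 3 UMIs). The gates took 281 mutant and 203 wt nuclei for Ndnf, Anxa1, Aldh1a1 and Sox6 (nigral), 251 and 119 for Eya1, Neurod6, Otx2 and Calb1 (tegmental), 174 and 118 for Sema5b and Sulf1, 308 and 154 for Cgnl1, Etv1 and Pde11a, 174 and 152 for Glra2 and Nt5e, and 263 and 129 for Ebf2, Adam12 and Htr2c. The remaining 1424 mutant and 445 wt nuclei were unassigned.

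Nigral-gate nuclei of the wt library were marked by Kcns3, Kcnj6 and Kcnn3. In the mutant library Kcnj6 and Kcnn3 were above the rest in this gate by less than 1.5-fold. Kcns3 had 219 CPM in the mutant and 296 CPM in the wt nigral gate, a log2 ratio over the rest of the dopamine nuclei of 1.15 in mutant and 1.38 in wt. Its level in the tegmental, Sema5b-Sulf1 and Glra2-Nt5e gates lay between 25.5 and 34.4 CPM in mutant and between 39.4 and 48.0 CPM in wt nuclei. Kcnj6 had 874 CPM in the mutant and 1797 CPM in the wt nigral gate, where in wt nuclei the other 5 named gates lay between 536 and 798 CPM. The unassigned nuclei are not in that range. In clusters of wt dopamine nuclei made without Kcn genes, Kcnj6 had 1867 CPM in one with Anxa1 and Ndnf among its leading genes. It had 1631 CPM in another, led by Arhgap28. Kcnn3 had 358 CPM in the mutant and 628 CPM in the wt nigral gate. Among the wt clusters it had 702 CPM in the one with Anxa1 and Ndnf and 608 CPM in one led by Tacr3. The same gate was low in Kcnh7, with 27.8 CPM in mutant and 17.9 CPM in wt, in Kcnab1, with 29.1 and 44.1 CPM, and in Kcnip1, with 27.7 and 8.12 CPM.

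The Glra2-Nt5e and tegmental gates shared high Kcnab1 and Kcnh5. Kcnab1, a beta subunit that speeds inactivation of Kcna channels, had 596 CPM in the mutant and 740 CPM in the wt Glra2-Nt5e gate, and 644 and 591 CPM in the mutant and wt tegmental gate. Kcnh5, an ether-a-go-go channel, had 250 CPM in the mutant and 359 CPM in the wt Glra2-Nt5e gate, against 16.05 CPM in the mutant and 9.65 CPM in the wt nigral gate. Its relative Kcnh1 followed, with 124 CPM in the mutant and 109 CPM in the wt Glra2-Nt5e gate and with 7.08 and 4.90 CPM in the mutant and wt nigral gate. Kcng3 was high in the tegmental gate, with 59.3 CPM in mutant and 48.8 CPM in wt. It was not particular to that gate. In wt nuclei Kcng3 was also among the leading members of the Sema5b-Sulf1 gate. Its log2 ratio over the rest was slightly higher there than in the wt tegmental gate.

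Two-pore channels, which carry background leak current, marked 2 other gates. Kcnk9 had 127 CPM in the mutant and 125 CPM in the wt Sema5b-Sulf1 gate, and 89.9 and 71.7 CPM in the mutant and wt Cgnl1-Etv1 gate, against 10.5 and 11.9 CPM in the mutant and wt nigral gate. Kcnk13 had 40.8 CPM in the mutant and 69.1 CPM in the wt Sema5b-Sulf1 gate, and 47.8 and 65.9 CPM in the mutant and wt Cgnl1-Etv1 gate. Kcnmb2 stood out in the Cgnl1-Etv1 gate, with 112 CPM in mutant and 107 CPM in wt. The Ebf2-Adam12 gate was high in Kcnj3, with 227 CPM in mutant and 302 CPM in wt, and in Kcnh7, with 641 and 508 CPM. Among the wt clusters, the one with the highest Ebf2-Adam12 sum, led by Gpc3, had 301 CPM Kcnj3 and 593 CPM Kcnh7. Other clusters came close. The one led by Sema5b had 278 CPM Kcnj3 and 469 CPM Kcnh7, and one with Nt5e among its leading genes had 577 CPM Kcnh7.

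Kcnq3, an M-channel subunit, varied less, between 899 and 1171 CPM in the 7 mutant sets and between 743 and 1181 CPM in the 7 wt sets. When wt dopamine nuclei were clustered without Kcn genes, one cluster of 211 nuclei was led by Prr5l and St18, genes known from oligodendrocytes.

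**Figure D2:**
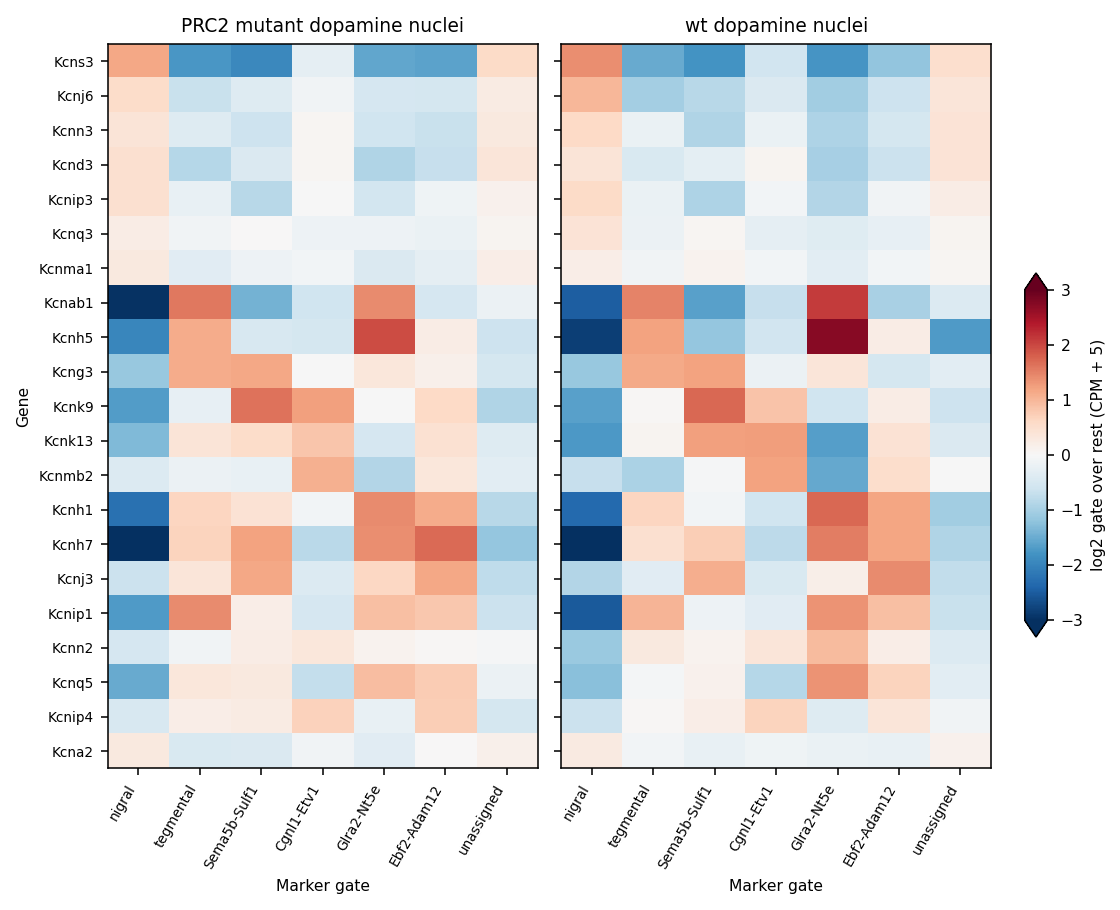
Log2 ratio of each marker gate over the rest of the dopamine nuclei of the same library (CPM with 5 added) for selected potassium channel genes, with the PRC2 mutant on the left and wt on the right and colours held at -3 and 3. Kcns3 is high in the nigral column in both panels (1.15 in mutant, 1.38 in wt), and Kcnh5 is high in the Glra2-Nt5e column (1.97 in mutant, 2.74 in wt).

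Between genotypes, mutant dopamine nuclei held less Kcnj6 and Kcnn3 and more Kcnn2, Kcna1, Kcnip1 and Kcnrg. Of 70 members with at least 50 UMIs, 4 were higher at 1.5-fold, where 1.99% of all genes measured were, and 2 were lower, where 1.46% were. The other 64 stayed within 1.5-fold, and 21 members were too low to compare. The median log2 ratio of mutant to wt was 0.06 over the members and 0.02 over all genes. The wt dopamine nuclei also stand in the comparison with other nuclei above, so the 2 comparisons share them. Markers of GABAergic neurons moved with genotype in this class, at a sum of 179 CPM in mutant and 34.0 CPM in wt dopamine nuclei, with all 3 detected, and the GABAergic gate of other nuclei held 491 CPM Kcnn2 and 248 CPM Kcnip1 in mutant and 499 and 173 CPM in wt. Their part in the results was not tested. Just outside the limit lay Kcnip4, at a log2 ratio of -0.50, and Kcnma1, at 0.48, and just inside it lay Kcnrg, at 0.59, and Kcnip1, at 0.61.

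Among inward rectifiers, Kcnj6 had 617 CPM in mutant and 1050 CPM in wt dopamine nuclei, from 42387 and 41349 UMIs, a mutant to wt ratio of 0.587 (0.579 to 0.595). Per nucleus its median was 5.46 per 10000 in mutant nuclei (quartiles 3.21 and 7.94) and 7.08 per 10000 in wt nuclei (quartiles 3.25 and 13.4). The lower quartiles were alike, the upper quartile and the 90th percentile (10.6 in mutant and 20.1 in wt) were lower in mutant nuclei, and the 2 groups overlapped. Thinned to 2000 UMIs each, 64.4% of mutant (62.6 to 66.2) and 68.1% of wt dopamine nuclei (65.5 to 70.6) held a Kcnj6 UMI, against 8.93% and 7.14% of 56 nuclei in the mutant and wt oligodendrocyte gate and 96.1% and 95.8% of the mutant and wt dopamine nuclei unthinned. In other nuclei Kcnj6 had 231 CPM in mutant and 205 CPM in wt. Its partner Kcnj3 had 110 CPM in mutant and 131 CPM in wt dopamine nuclei, and Kcnj9, a further Girk subunit, had 5.57 and 5.64 CPM, both within 1.5-fold. Of 11 inward rectifiers measured, Kcnj6 alone passed the limit.

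Among SK channels, the balance of Kcnn2 and Kcnn3 differed. Kcnn3 had 280 CPM in mutant and 449 CPM in wt dopamine nuclei, a ratio of 0.623 (0.610 to 0.636), with medians per nucleus of 2.39 per 10000 (quartiles 1.29 and 3.72) in mutant and 3.78 per 10000 (quartiles 1.78 and 5.94) in wt. Kcnn2 (chr18:45268860-45686024) had 370 CPM in mutant and 218 CPM in wt dopamine nuclei, a ratio of 1.69 (1.65 to 1.74), with medians of 3.19 per 10000 (quartiles 1.68 and 5.01) in mutant and 1.68 per 10000 (quartiles 0.622 and 3.42) in wt. The quartile ranges overlap for both genes. Thinned, Kcnn3 was seen in 40.1% of mutant (38.3 to 41.9) and 50.9% of wt dopamine nuclei (48.1 to 53.7), against 90.7% and 91.8% unthinned and 5.36% and 3.57% in the mutant and wt oligodendrocyte gate. Kcnn2 was seen in 46.3% of mutant (44.4 to 48.1) and 35.3% of wt dopamine nuclei (32.7 to 38.0), against 91.6% and 84.8% unthinned and 26.8% and 17.9% in the mutant and wt oligodendrocyte gate. Thinned to 5000 UMIs, Kcnn2 was seen in 75.5% of mutant and 57.5% of wt dopamine nuclei, within the intervals of the oligodendrocyte gate, at 65.6% (46.8 to 81.4) in mutant and 54.8% (36.0 to 72.7) in wt. Their summed level with the other SK and IK genes was 651 CPM in mutant and 669 CPM in wt dopamine nuclei, a ratio of 0.974 (0.959 to 0.989). Kcnn2 made up 56.95% of the UMIs of the pair in mutant and 32.7% in wt dopamine nuclei. Among dopamine nuclei with either gene, 56.8% of 2811 mutant nuclei (55.0 to 58.7) held more Kcnn2 than Kcnn3, against 30.05% of 1278 wt nuclei (27.5 to 32.6). Nuclei were not thinned for this count. It is compared between sets of nuclei and does not rank the levels of the 2 genes within a set. In other nuclei Kcnn2 made up 80.7% of the pair's UMIs in mutant and 76.0% in wt.

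Of 33 measured voltage-gated alpha subunits, Kcna1 alone passed the limit. Kcna1 (chr6:126640397-126646384) had 16.1 CPM in mutant and 7.46 CPM in wt dopamine nuclei, a ratio of 2.16 (1.90 to 2.46), and no UMI of it was found in 74.6% of mutant and 84.5% of wt dopamine nuclei. With each nucleus thinned to 2000 UMIs, Kcna1 was seen in 2.84% of mutant and 1.56% of wt dopamine nuclei (25.4% and 15.5% unthinned), below the 21.4% of 56 nuclei of the oligodendrocyte gate in each library, whose median depths before thinning were 4410 and 4955 UMIs. That gate held more Kcna1 than all other nuclei, where the thinned share was 6.47% in mutant and 5.60% in wt, so it gives no background level for this gene, and the part of free RNA in the low Kcna1 counts of dopamine nuclei was not tested. The other 32 measured alpha subunits stayed within 1.5-fold, with Kcnd3 at 1247 CPM in mutant and 1187 CPM in wt, Kcnq3 at 1014 and 934 CPM, and Kcna2 at 29.8 and 23.4 CPM in mutant and wt dopamine nuclei. Kcns3 had 107 CPM in mutant and 141 CPM in wt, a log2 ratio of -0.38.

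Kcnip1 (chr11:33629339-33993152), a calcium sensor of A-type channels, had 94.6 CPM in mutant and 60.3 CPM in wt dopamine nuclei, a ratio of 1.57 (1.496 to 1.64). It overlaps the gene 4930469K13Rik on the same strand, so its tags are uncertain. Thinned, it was seen in 15.5% of mutant dopamine nuclei (14.2 to 16.9) and 10.9% of wt dopamine nuclei (9.24 to 12.7), against 52.9% and 41.2% unthinned, and in 12.5% of mutant (5.18 to 24.1) and 3.57% of wt oligodendrocyte-gate nuclei. Thinned to 5000 UMIs, it was seen in 30.3% of mutant and 19.7% of wt dopamine nuclei, and in 34.4% of 32 mutant and 9.68% of 31 wt oligodendrocyte-gate nuclei. The mutant share was thus not above that gate's at either depth beyond counting error. With so few nuclei in the gate, it could not be told from background in this way. Between clusters of wt dopamine nuclei Kcnip1 ran from 3.26 to 163 CPM, and the part of free RNA was not tested. Kcnip4 had 4804 CPM in mutant and 6799 CPM in wt dopamine nuclei, a ratio of 0.707 (0.703 to 0.710) that missed the limit. Its level in the oligodendrocyte gate, 4018 CPM in mutant and 5617 CPM in wt, had a log2 ratio of -0.48, close to that of dopamine nuclei, and whether free RNA took part in either was not tested.

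Kcnrg (chr14:61607457-61612826) had 4.89 CPM in mutant and 1.57 CPM in wt dopamine nuclei, from 336 and 62 UMIs, a ratio of 3.105 (2.36 to 4.14), and 2.62 and 2.24 CPM in mutant and wt other nuclei. Thinned, it was seen in 0.843% of mutant and 0.311% of wt dopamine nuclei and in 0 of 56 nuclei of each oligodendrocyte gate, which allows a share of up to 5.36%, so that shares of this size could not be told from background. The BK channel Kcnma1 had 1781 CPM in mutant and 1276 CPM in wt dopamine nuclei, a ratio of 1.40 (1.38 to 1.41) that missed the limit, with medians per nucleus of 17.0 and 12.3 per 10000. All 9 measured two-pore channels stayed within 1.5-fold, Kcnk9 with 41.2 CPM in mutant and 41.4 CPM in wt and Kcnk10 with 107 and 77.2 CPM. Summed by family, the inward rectifiers had 753 CPM in mutant and 1206 CPM in wt dopamine nuclei, the Kcnip genes 4986 and 6951 CPM, the BK and sodium-activated genes 2022 and 1502 CPM, and the voltage-gated alpha genes 6306 and 5871 CPM. Each of these sums is led by 1 or a few genes, Kcnj6, Kcnip4 and Kcnma1 among them.

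**Figure D3:**
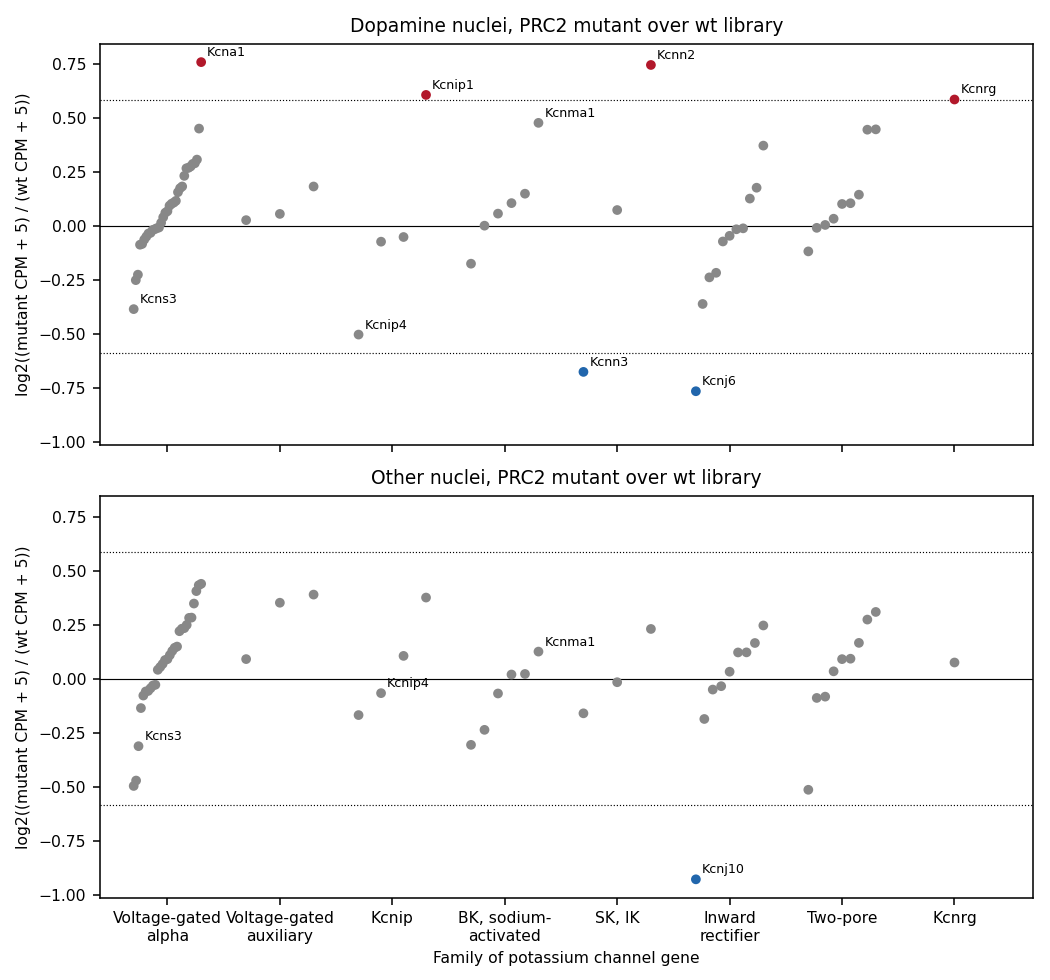
Log2 ratio of the PRC2 mutant to the wt library (CPM with 5 added) for each measured potassium channel gene by family, in dopamine nuclei (top) and other nuclei (bottom), with red for higher, blue for lower and dotted lines at 1.5-fold. Kcnj6 (-0.76) and Kcnn3 (-0.67) lie below the lower line in dopamine nuclei, and Kcnj10 (-0.93) does in other nuclei.

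**Figure D4:**
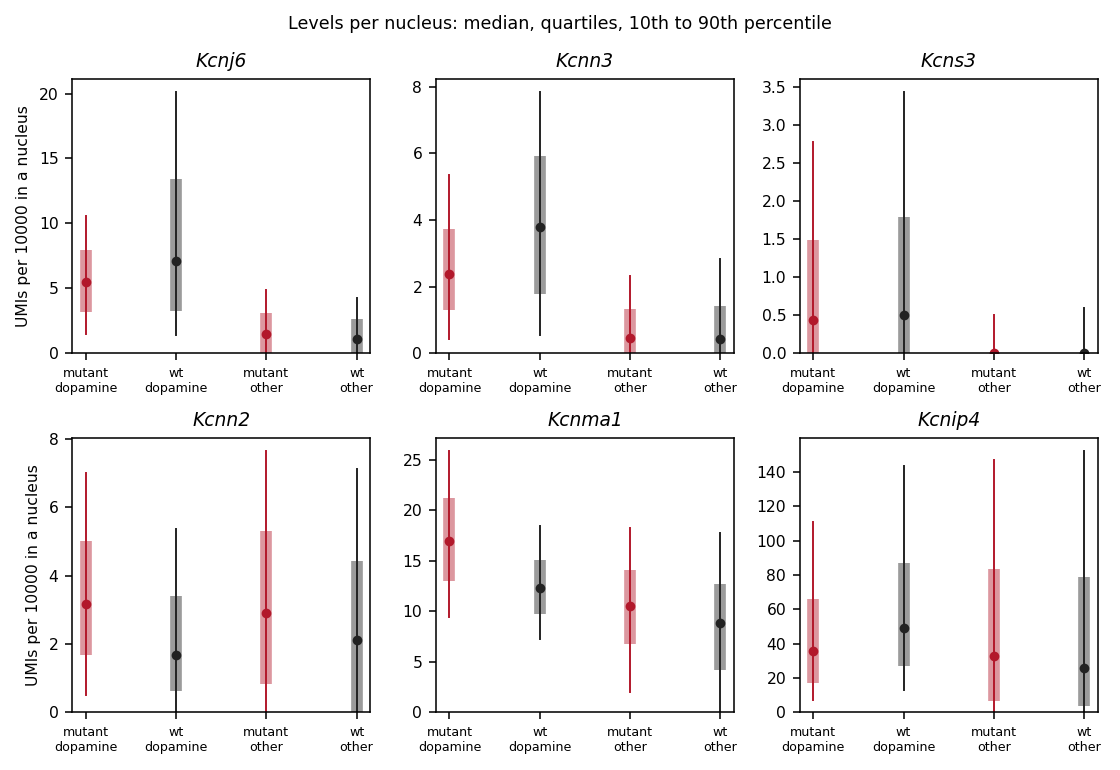
UMIs per 10000 in single nuclei for 6 potassium channel genes, with mutant (red) left of wt (black) within dopamine and other nuclei, where points are medians, thick bars quartiles and thin lines the 10th to 90th percentile. The Kcnj6 upper quartile is 7.94 in mutant and 13.4 in wt dopamine nuclei, while the lower quartiles are 3.21 and 3.25.

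The make-up of the dopamine class differed between libraries: nigral-gate nuclei were 9.77% of mutant and 15.4% of wt dopamine nuclei, and the gate genes were lower in mutant nuclei. Within the marker gates and the unassigned nuclei, the log2 ratio was below 0 in 7 of 7 sets for Kcnj6, from -1.04 to -0.29, and for Kcnn3, from -0.84 to -0.40. The ratio was above 0 in 7 of 7 sets for Kcnn2, Kcna1, Kcnip1 and Kcnrg, from 0.05 to 1.25 for Kcnn2 and from 0.01 to 1.27 for Kcna1. Kcnj6 passed 1.5-fold in 3 of the 7 sets, Kcnn3 in 4 and Kcnn2 in 5. The widest gap in Kcnn2 was in the nigral gate, with 266 CPM in mutant and 109 CPM in wt, and the narrowest in the Glra2-Nt5e gate, with 398 and 385 CPM.

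Not all directions were kept when nuclei were split by ranges of the dopamine sum. This sum itself differed with genotype, with medians of 13.7 per 10000 in mutant and 24.3 per 10000 in wt dopamine nuclei. It also differed with subtype, with medians from 11.5 in the wt Ebf2-Adam12 gate to 30.6 in the wt nigral gate. Nuclei of the same range are thus not matched in subtype. In nuclei from 5 to 15 per 10000, 1675 mutant and 282 wt, Kcnj6 was at 592 CPM in mutant and 420 CPM in wt, and Kcnn3 at 263 and 215 CPM, log2 ratios of 0.49 and 0.29 that are above 0 but within 1.5-fold. From 15 to 30, with 1138 mutant and 659 wt nuclei, Kcnj6 was at 662 CPM in mutant and 999 CPM in wt, and Kcnn3 at 308 and 431 CPM. From 30 up, with 62 mutant and 379 wt nuclei, Kcnj6 was at 632 CPM in mutant and 1487 CPM in wt, and Kcnn3 at 335 and 611 CPM. The wt levels of both genes were higher in each next range of the dopamine sum, while the mutant levels of Kcnj6 stayed between 592 and 662 CPM. The log2 ratio of Kcnn2 was above 0 in all 3 ranges, at 0.26, 0.54 and 1.24, and so was that of Kcnma1, between 0.50 and 0.56. Kcnip1 was at a log2 ratio of -0.25 in the lowest range and 2.38 in the highest, and Kcna1 at 0.49 and -0.15. With the 3 ranges weighted equally in both libraries, Kcnn3, Kcna1 and Kcnip1 no longer passed 1.5-fold, while Kcng3, at a log2 ratio of 0.63, and the Girk subunit Kcnj3, at -0.61, did.

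Mutant dopamine nuclei also differed by their Hox level. The 1188 nuclei with at least 5 Hox UMIs per 10000 had a median depth of 23967 UMIs, and the 830 with under 1 had 13202 UMIs, and these sets were not alike in subtype, the mutant nigral gate having a median Hox sum of 7.35 per 10000 and the tegmental gate 0.806. Kcns3 was at 168 CPM in Hox-high and 27.1 CPM in Hox-low mutant nuclei, Kcnj6 at 766 and 401 CPM, and Kcnn3 at 340 and 201 CPM. Kcnh7 ran the other way, with 80.4 CPM in Hox-high and 509 CPM in Hox-low nuclei, as did Kcnk9, with 22.5 and 82.1 CPM, and Kcnip1, with 52.7 and 159 CPM. Kcnn2 was at 374 CPM in Hox-high and 358 CPM in Hox-low mutant nuclei, both above the 218 CPM of all wt dopamine nuclei. Kcnip4 was at 3704 CPM in Hox-high and 6481 CPM in Hox-low nuclei, against 6799 CPM in wt. The part of subtype and depth in these differences was not tested.

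**Figure D5:**
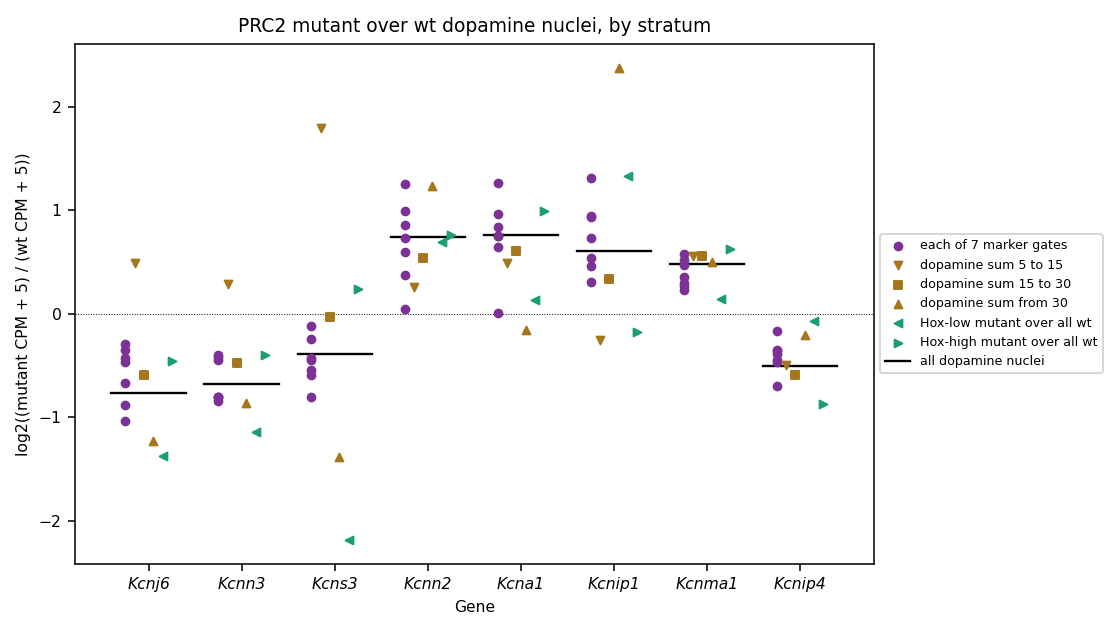
Log2 ratio of mutant to wt dopamine nuclei (CPM with 5 added) for 8 potassium channel genes, with black bars for all dopamine nuclei and symbols for 7 marker sets, 3 ranges of the dopamine sum (UMIs per 10000) and Hox-low or Hox-high mutant nuclei over all wt nuclei. Kcnn2 and Kcnma1 lie above 0 in every set shown, and Kcnj6 lies below 0 in all but the lowest range of the dopamine sum (0.49).

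In other nuclei, 0 of 64 measured members were higher in the mutant library, where 1.00% of all genes were, and 1 was lower, where 1.94% were. That one was Kcnj10, the inward rectifier of astrocytes and oligodendrocytes, with 5.04 CPM in mutant and 14.1 CPM in wt other nuclei. The share of glia differed too: the oligodendrocyte gate took 6.13% of mutant and 13.9% of wt other nuclei and the astrocyte gate 4.85% and 11.7%. Summed astrocyte markers had 46.4 CPM in mutant and 124 CPM in wt other nuclei, and oligodendrocyte markers 266 and 543 CPM. Within the oligodendrocyte gate Kcnj10 had 50.9 CPM in mutant and 51.4 CPM in wt, and within the astrocyte gate 51.0 and 93.9 CPM from 24 and 46 UMIs. With nuclei rich in glial markers left out, the call for Kcnj10 was lost and 1 for Kcnh8 was gained. The members called in dopamine nuclei stayed within 1.5-fold in other nuclei: Kcnn2 had 389 CPM in mutant and 331 CPM in wt, Kcnn3 93.0 and 105 CPM, Kcna1 41.5 and 33.3 CPM, and Kcnip1 216 and 165 CPM. Whether a member's ratio differed between the 2 classes was not tested.

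Classes of other nuclei had members of their own. Kcnk13, also known from microglia, had 172 CPM in the mutant and 160 CPM in the wt oligodendrocyte gate and 129 and 118 CPM in the mutant and wt microglia gate. Kcnq5, an M-channel subunit, had 1517 CPM in the mutant and 1199 CPM in the wt glutamatergic gate, against 505 and 311 CPM in the mutant and wt GABAergic gate. Kcnmb2 had 180 CPM in the mutant and 234 CPM in the wt GABAergic gate. Kcnip3 had 436 CPM in the mutant and 439 CPM in the wt oligodendrocyte precursor gate, and Kcnh8 261 and 289 CPM, from 33 mutant and 11 wt nuclei. In wt, the log2 ratio of Kcnh8 over the rest of the other nuclei was 2.53 in that gate and 2.82 in the vascular gate of 9 nuclei. That of Kcnq5 was 1.05 in the glutamatergic and 1.30 in the vascular gate. For Kcnip3 it was 2.94 in the precursor and 1.65 in the astrocyte gate.

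Of 22 partner genes of these channels fixed as a list, 21 were analysed and 20 had enough UMIs in dopamine nuclei. None was higher in mutant dopamine nuclei at 1.5-fold, where 1.99% of all genes were, and 1 was lower, where 1.46% were, namely Lrrc55, an auxiliary gamma subunit of BK channels, with 11.6 CPM in mutant and 24.1 CPM in wt, a ratio of 0.479 (0.436 to 0.527). The autoreceptor gene Drd2 had 228.4 CPM in mutant and 309 CPM in wt, within the limit. The A-type partner Dpp6 had 1970 CPM in mutant and 1752 CPM in wt dopamine nuclei, and Dpp10 1037 and 1182 CPM. Abcc8, the sulfonylurea receptor that joins Kcnj11, had 16.8 CPM in mutant and 11.1 CPM in wt dopamine nuclei, and Gnb5 and Rgs7, which shorten Girk signals, had 51.6 and 48.6 CPM and 922 and 984 CPM.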

How the data were processed

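Nuclei of mouse midbrain were sorted by flow cytometry and made into 10x 3' libraries, per the labels' protocols. What the authors deposited is a count matrix, raw UMIs of 23481 genes in 3968 mutant and 1772 wt nuclei, and the start of each column name gave the library. Cell Ranger 3.1.0 and mm10 stand in the submitters' processing notes with no role given, and filters and the use of intronic reads are not stated in what was used here. Depth ran from 621 to 127151 UMIs per nucleus in the mutant and from 673 to 121160 UMIs in the wt library.

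Counts were summed by class and library and divided by the class total (CPM). Ratios for calls have a pseudocount of 5 CPM and need 50 UMIs over both sets. Printed ratios have none, with exact 95% intervals from the binomial split. No test was run, since each genotype is 1 library. Shares of nuclei were thinned to 2000 UMIs (seed 57). The ratio and call rule were tried on simulated counts with counting error only and with changes placed only in genes with many UMIs. That simulation does not cover differences between nuclei, pools or libraries, or genes with few UMIs. Python 3.11.15, numpy 2.4.6, scipy 1.17.1, pandas 2.3.3, igraph 0.11.9 and leidenalg 0.10.2 were used, with gene positions from GENCODE M21.

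Members, gene lists, thresholds and the naming rule were all set with earlier results of these data known. The naming rule takes members past 1.5-fold in dopamine nuclei, 15 members known from dopamine neurons, the 6 highest and 6 lowest in dopamine over other wt nuclei, and the leading 3 of each subtype gate and 2 of each other class. Other members named as close to the limit, as pairs of a named gene or as the rest of a count were chosen after their values were seen. Promoter windows are RefSeq sequence of the 250 bases before a start, and protein sequences were not used here. Some genes are counted here but not reported by name.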

Additional observations from a re-analysis of the deposited data

Results flagged for a closer look

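Of the 30 potassium channel genes under the naming rule, 7 had a mutant to wt ratio that differed in direction between sets of dopamine nuclei. Each was past 1.5-fold upward in one set and downward in another. The same count was not made over all genes, so 7 cannot be called many or few. With 1 library per genotype none of these differences was tested. Across ranges of the dopamine sum the gap in log2 ratio between the highest and the lowest range was 3.38 for Kcnh7 (2.18 from 30 per 10000 up and -1.20 from 5 to 15), 3.19 for Kcns3 (1.80 from 5 to 15 and -1.38 from 30 up) and 2.60 for Kcnh1 (1.86 from 30 up and -0.73 from 5 to 15). It was 2.38 for Kcnh5, 2.26 for Kcnab1 and 1.72 for Kcnq5, each higher in mutant nuclei from 30 up and lower from 5 to 15. The range from 30 up held 62 mutant and 379 wt nuclei. Across marker gates the gap was 1.63 for Kcnk13, at 0.94 in the Glra2-Nt5e gate and -0.69 in the Sema5b-Sulf1 gate.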

How the results depend on the processing

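No paired analysis was possible because each genotype is 1 library whose lanes are not kept apart, and no replicate could be left out. Counts of calls were recomputed under 70 combinations of result and alternative: 53 stayed within 1.5 times and 17 moved. Of other values, 62 of 270 log2 ratios of members, 14 of 18 levels of gate leaders and 58 of 60 shares of nuclei moved, the shares under thinning to 5000 UMIs, and 0 of 7 family sums did. Moves of member ratios were judged without a pseudocount, so the alternatives that change only the pseudocount could not move them. Against 4 members higher in mutant dopamine nuclei, a pseudocount of 1 CPM gave 7, of 20 CPM gave 1, a 2-fold limit 0 and median-of-ratios scaling 2. Against 2 lower, a pseudocount of 1 CPM gave 4 and a 2-fold limit 0. In other nuclei, against 0 higher, a pseudocount of 1 CPM gave 1, other nuclei under 2 per 10000 gave 2 and the mean over nuclei 1. Against 1 lower, a pseudocount of 1 CPM gave 2, of 20 CPM 0, a 2-fold limit 0, at least 200 UMIs 0, other nuclei under 2 per 10000 gave 2 and the mean over nuclei 2. Against 14 lower in wt dopamine than wt other nuclei, a pseudocount of 20 CPM gave 7 and a 3-fold limit 4. The cause was not tested, beyond that stricter limits call fewer genes. The 6 called members kept their direction in 9 of 9 alternatives, with log2 ratios from -0.80 to -0.62 for Kcnj6, -0.71 to -0.46 for Kcnn3 and 0.61 to 0.76 for Kcnn2. A pseudocount of 1 or 20 CPM cannot reverse a direction, so these alternatives could not have gone otherwise. Equal ranges of the dopamine sum average over ranges of unlike direction for Kcnj6, Kcnn3, Kcna1 and Kcnip1. Calls were lost for Kcnip1 and Kcnrg under median-of-ratios scaling, for Kcna1, Kcnip1 and Kcnrg with a pseudocount of 20 CPM, for Kcnip1 with the dopamine gate at 10 per 10000, for Kcnrg with equal subtype gates, and for Kcna1, Kcnip1 and Kcnn3 with equal ranges of the dopamine sum. Leaving out nuclei rich in glial markers kept all 6 calls.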
